A study of Mus musculus with 12 samples.

Results

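A set of 10 liver genes of nitrogen disposal was followed across 12 mouse liver arrays. They comprise the 5 urea cycle enzymes Cps1, Otc, Ass1, Asl and Arg1, the amino acid degrading enzymes Sds and Tdo2, and the aminotransferases Gpt, Gpt2 and Got1. They were chosen by name, through the array's own gene name or the current symbol of its RefSeq accession, with earlier results of these data known. They are 10 of the 28781 gene names on the array and hold 14 of its 41174 probes. Gpt stands on the array under its older name, Gpt1. All 14 probes were well above background on each of the 12 arrays and none was saturated, so each of the 10 genes was measured in each sample.

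The urea cycle turns ammonia, which is toxic to the brain, into urea, and the whole cycle runs only in hepatocytes, mostly those around the portal vein. Cps1 and Otc work inside mitochondria and make carbamoyl phosphate and then citrulline, Ass1 and Asl add the second nitrogen and release fumarate in the cytosol, and Arg1 splits arginine into urea and ornithine. Aminotransferases and deaminating enzymes supply the nitrogen and feed the carbon skeletons to glucose synthesis. Glucocorticoids and glucagon raise transcription of many of these genes in fasting or on a protein-rich diet, and Tdo2 and Tat are classical glucocorticoid-induced liver genes.

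The livers came from male C57BL/6 mice, 3 months old, whose liver lacks the glucocorticoid receptor (GR). The groups hold 4 samples each, from mice given an adeno-associated virus with human GR beta (AAV-hGRB), the same kind of virus with green fluorescent protein (AAV-GFP), or phosphate-buffered saline (PBS). GR beta is a splice form of GR that does not bind glucocorticoids, and the series asks what it does to transcription where GR alpha is missing. All 3 groups share the knockout, and no liver with intact GR is part of the comparison. What drives the deletion, the vector dose and the time between injection and sampling are not given in the labels used. The labels number the samples but do not say that each is an animal of its own, so a p-value speaks of the spread among these samples, which may be technical. The brightest probe of Nr3c1, the GR gene, read 0.49, 0.27, 0.58 and 0.28 in AAV-hGRB livers, 0.48, 0.36, 0.46 and 0.05 in AAV-GFP livers and 0.14, 0.43, 0.40 and 0.49 in PBS livers. It is a level in the unit explained next. With no liver that keeps the gene, and with the deleted exons not known here, it does not check the knockout.

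A level is the log2 of the processed spot intensity minus the 75th percentile of that array, so a difference of 1 between groups is a 2-fold difference in signal. Levels of different probes cannot be compared with each other, because each probe binds with its own strength. Between arrays, Pearson correlations over the tested probes ran from 0.905 to 0.986. From 22598 to 27315 probes were well above background. AAV-GFP replicate 3 had the lowest count and the dimmest array, with a 75th percentile of 209 intensity units against 349 to 598 on the other 11. It also had the lowest weight, 0.156, in an estimate of array reliability. The counts over the 10 genes, Otc and the medians of the pathway lists are also given without it.

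The probes that carry the following results are shown so that the measured stretch of each transcript can be seen. All 4 cross an intron by their mm7 coordinates, since the design places 60 letters over a longer genomic interval, and so they read spliced RNA. No exon or UTR annotation of that build was used here. The 5′ probe of Otc lies at chrX:8709867-8733514 on the plus strand, and is the probe that sets AAV-GFP replicate 3 apart. The brighter Ass1 probe lies at chr2:31526070-31527709 on the plus strand, and the capitals mark the 20 letters it shares with the second Ass1 probe. The Asl probe lies at chr5:129249917-129250502 on the minus strand and the Gpt probe at chr15:76781889-76782019 on the plus strand.
Otc 5′ probe: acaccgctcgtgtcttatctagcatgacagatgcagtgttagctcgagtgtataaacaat
Ass1 probe: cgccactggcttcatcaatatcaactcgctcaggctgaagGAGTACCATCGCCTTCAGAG
Asl probe: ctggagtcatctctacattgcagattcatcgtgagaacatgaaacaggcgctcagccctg
Gpt probe: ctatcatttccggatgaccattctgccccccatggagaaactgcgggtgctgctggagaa

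Promoter sequence from RefSeq (GRCm38.p6) was matched for 5 of the 10 genes, Ass1, Tdo2, Gpt2, Got1 and Otc. The 250 bases before the start were searched on both strands for the GR half-site AGAACA, the full GR element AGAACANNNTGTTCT (which contains the half-site), the C/EBP palindrome TTGCGCAA, the cAMP element TGACGTCA, TATAAA, the E-box CACGTG and CCAAT. None of the 5 windows held either GR motif, the C/EBP palindrome or the cAMP element, which occur in 16.1%, 0.00913%, 0.164% and 1.55% of the 32851 promoter windows of the same length. Got1 held 5 CCAAT matches, counting both strands. At least 1 such match occurs in 33.8% of windows and at least 5 in 0.213%. Ass1 held 1 E-box, 30 bases before its start (6.02% of windows). Tdo2 held 1 TATAAA at 223 bases (12.4% of windows) and 1 CCAAT match at 73 bases. The windows of Gpt2 and Otc held none of the 7 motifs. These are letters in a window and do not say whether a factor binds there. The windows of 4 genes are shown, for the gene with the most matches (Got1), for 2 genes lower in AAV-hGRB than in PBS livers (Ass1 and Gpt2) and for a glucocorticoid-induced gene that was level between groups (Tdo2). Capitals mark the matches, and they lie at chr2:31470020-31470269 (plus strand, Ass1), chr8:85492326-85492575 (plus strand, Gpt2), chr19:43524606-43524855 (minus strand, Got1) and chr3:81975729-81975978 (minus strand, Tdo2).
Ass1: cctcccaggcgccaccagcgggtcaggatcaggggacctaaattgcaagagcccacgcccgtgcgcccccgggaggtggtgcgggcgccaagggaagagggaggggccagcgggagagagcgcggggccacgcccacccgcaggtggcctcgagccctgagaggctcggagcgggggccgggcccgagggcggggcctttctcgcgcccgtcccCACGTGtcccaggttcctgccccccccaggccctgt
Gpt2: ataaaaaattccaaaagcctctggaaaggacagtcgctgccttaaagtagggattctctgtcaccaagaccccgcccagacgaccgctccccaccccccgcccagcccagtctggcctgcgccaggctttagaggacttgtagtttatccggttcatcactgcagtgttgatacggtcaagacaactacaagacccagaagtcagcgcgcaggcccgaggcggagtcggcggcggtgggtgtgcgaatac
Got1: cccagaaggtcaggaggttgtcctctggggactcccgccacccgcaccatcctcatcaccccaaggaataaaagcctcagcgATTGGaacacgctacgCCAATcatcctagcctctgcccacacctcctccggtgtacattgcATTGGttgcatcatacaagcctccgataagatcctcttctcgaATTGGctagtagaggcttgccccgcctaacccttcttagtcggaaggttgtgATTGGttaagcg
Tdo2: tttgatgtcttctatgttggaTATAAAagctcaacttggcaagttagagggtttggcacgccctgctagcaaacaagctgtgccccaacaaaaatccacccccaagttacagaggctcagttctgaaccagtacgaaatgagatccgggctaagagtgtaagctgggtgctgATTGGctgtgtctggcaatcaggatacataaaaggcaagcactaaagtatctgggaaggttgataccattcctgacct

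Most of the 10 genes had their lowest mean in AAV-hGRB livers and their highest in PBS livers, with differences that did not pass the test. For 7 of them the means stood in the order AAV-hGRB below AAV-GFP below PBS. Arg1, Otc and Tdo2 did not follow that order. Asl, Gpt and Gpt2 were clearest, with all 4 AAV-hGRB livers below all 4 PBS livers. Such a separation held for 2.45% of all tested probes and for 4.97% of those as bright as these genes. Under array median scaling these groups overlapped for each of the 10. Leaving out PBS replicate 4 brought the median difference of the 10 from -0.43 to -0.06 for AAV-hGRB against PBS. None of the 10 passed limma's threshold in any of the 3 comparisons, which is an adjusted p under 0.05 over the 26591 tested probes. In whole liver, fewer hepatocytes and less RNA per hepatocyte cannot be told apart.

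**Figure D1:**
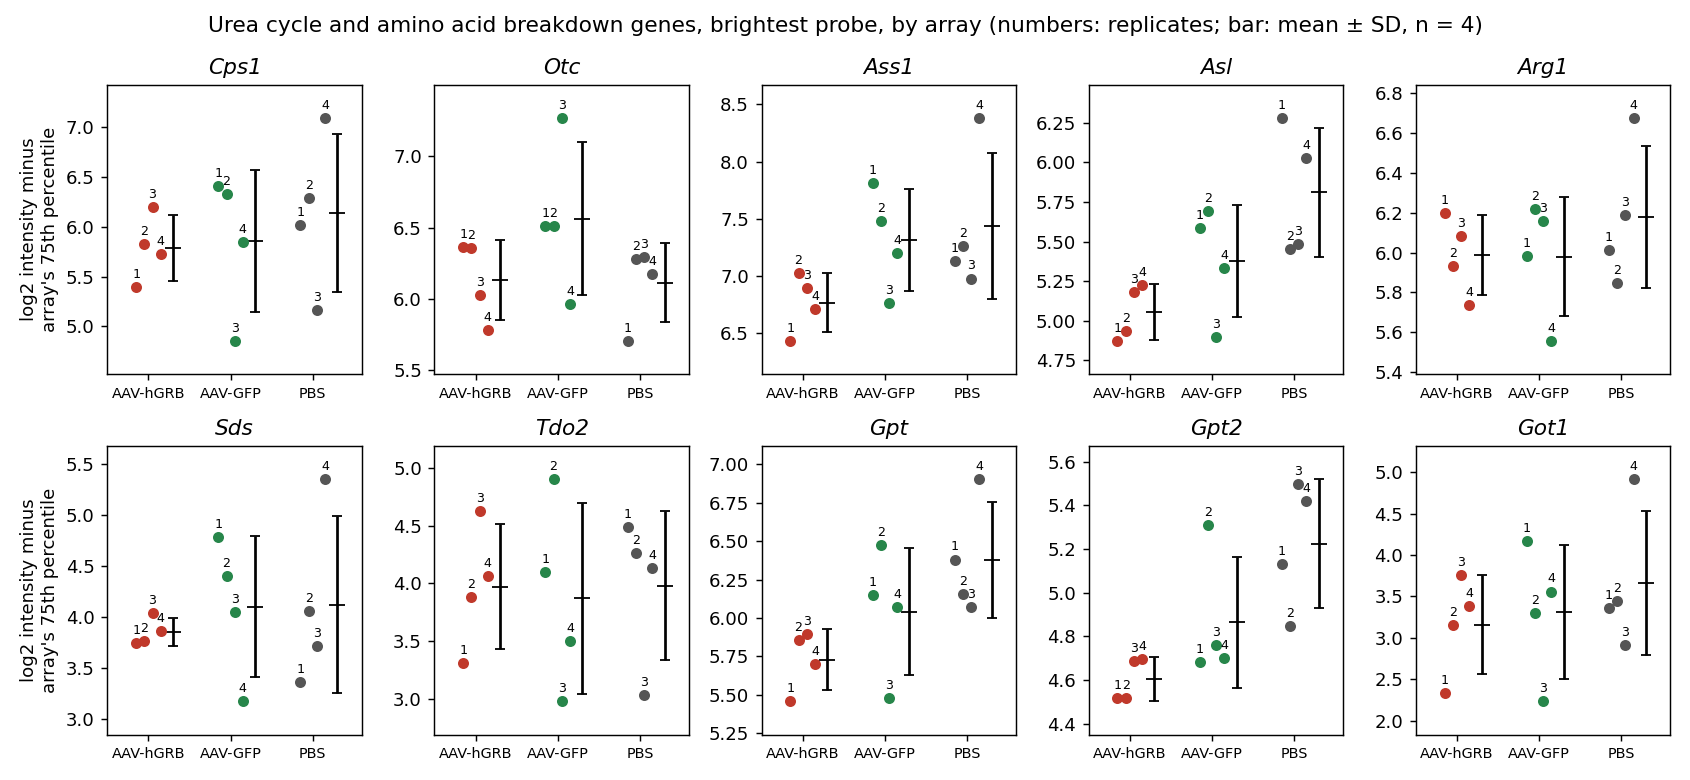
Level of each gene's brightest probe (y axis, log2, relative to the 75th percentile of the array) in AAV-hGRB, AAV-GFP and PBS livers. Dots are arrays with their replicate number, bars the mean ± SD of 4 arrays. AAV-hGRB dots of Asl, Gpt and Gpt2 all lie below the PBS dots, and PBS replicate 4 is the highest array for 6 of the 10 genes.

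Cps1, the enzyme that captures ammonia and sets the pace of the cycle, was read by a probe at chr1:67470600-67470659 (plus strand). Its levels were 5.39, 5.83, 6.20 and 5.72 in AAV-hGRB livers, 6.41, 6.32, 4.86 and 5.85 in AAV-GFP livers and 6.02, 6.28, 5.16 and 7.09 in PBS livers. The 3 groups overlapped, and both the lowest value (AAV-GFP replicate 3) and the highest (PBS replicate 4) lay in the 2 groups without hGRB. The means were 5.79 ± 0.33, 5.86 ± 0.71 and 6.14 ± 0.79 (SD, n = 4 each). Against AAV-GFP the difference was -0.07 (95% interval -0.98 to 0.84), and it turned positive under quantile scaling (0.15). Against PBS it was -0.35 (95% interval -1.26 to 0.56), and -0.04 without PBS replicate 4.

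Otc, which joins carbamoyl phosphate to ornithine, has 3 probes. The brightest, at chrX:8753291-8753350 (plus strand, toward the 3′ end), read 6.36, 6.36, 6.03 and 5.78 in AAV-hGRB livers, 6.51, 6.51, 7.26 and 5.96 in AAV-GFP livers and 5.71, 6.28, 6.29 and 6.18 in PBS livers. The highest of the 12 was AAV-GFP replicate 3, the array on which Cps1 was lowest. AAV-hGRB differed by -0.43 from AAV-GFP (95% interval -1.02 to 0.16) and by 0.02 from PBS, which turned to -0.12 with normexp background correction, and AAV-GFP differed by 0.45 from PBS. The 5′ probe read 2.33, 3.27, 3.49 and 3.03 in AAV-hGRB livers, 3.73, 3.77, 1.20 and 2.55 in AAV-GFP livers and 3.47, 3.57, 2.65 and 3.20 in PBS livers. Here AAV-GFP replicate 3 was the lowest of the 12, and AAV-hGRB differed by 0.22 from AAV-GFP and by -0.19 from PBS, and AAV-GFP by -0.41 from PBS. The probes thus disagreed in sign in all 3 comparisons, and in those with AAV-GFP this rested on replicate 3. Without it AAV-hGRB differed from AAV-GFP by -0.20 on the brightest and -0.32 on the 5′ probe, and AAV-GFP from PBS by 0.22 and 0.13. The third probe, which reads a clone sequence at chrX:8749268-8749327, ran from -2.14 to -0.61 over all arrays and differed by -0.23 for AAV-hGRB against AAV-GFP.

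The brightest Otc probe minus the 5′ probe was 6.06 on AAV-GFP replicate 3 and 2.24 to 4.03 on the other 11 arrays. The brightest probe holds a stop codon in each of its 3 forward reading frames and so cannot be coding throughout, while the 5′ probe keeps 1 open frame. The same array stood apart more widely. Over 977 other genes with a pair of probes along the transcript, the upper quartile of the 3′ minus 5′ difference, each gene centred on its own mean, was 0.66 on AAV-GFP replicate 3 and 0.12 to 0.49 on the others, while the median was -0.03 there and -0.23 to 0.23 over all 12 arrays. Between the 2 Tdo2 probes the 3′ minus 5′ difference was -0.69 on that array and -0.36 to 0.45 on the others. For Tdo2 that array was thus the lowest, where for Otc it was the highest. The part of AAV-GFP replicate 3 in the group differences was not tested beyond leaving the array out.

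**Figure D2:**
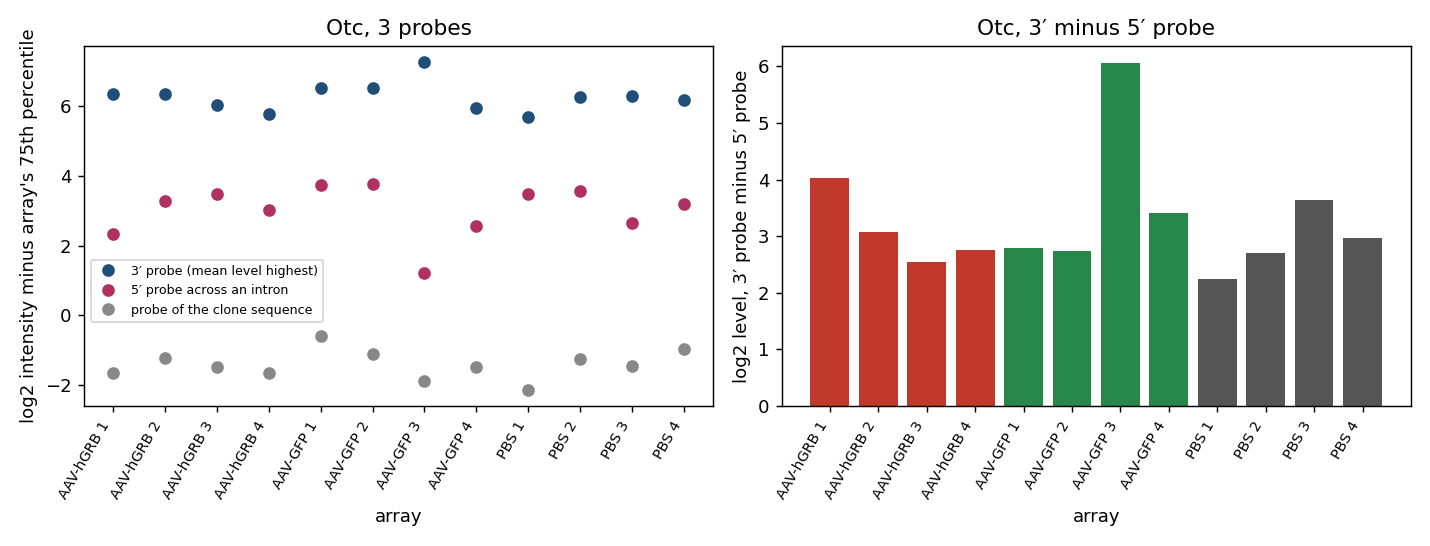
Left, levels (log2, relative to the 75th percentile of the array) of the 3 Otc probes on each array. Right, level of the 3′ probe minus that of the 5′ probe, bars starting at 0. AAV-GFP replicate 3 reaches 6.06, against 2.24 to 4.03 on the other 11 arrays.

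Ass1, which condenses citrulline with aspartate, read 6.43, 7.03, 6.89 and 6.71 in AAV-hGRB livers, 7.81, 7.48, 6.76 and 7.20 in AAV-GFP livers and 7.13, 7.26, 6.98 and 8.38 in PBS livers. The other 3 AAV-GFP livers lay above all AAV-hGRB livers, and AAV-GFP replicate 3 lay among the AAV-hGRB values. The means were 6.77 ± 0.26, 7.32 ± 0.45 and 7.44 ± 0.64 (SD, n = 4 each). Its change in AAV-hGRB was -0.55 against AAV-GFP (SE 0.32) and -0.67 against PBS (95% interval -1.37 to 0.03, limma adjusted p = 0.858). The second Ass1 probe, at chr2:31527690-31527748, gave -0.57 and -0.78 in the same comparisons. On that probe all AAV-hGRB livers lay below all PBS livers (95% interval -1.44 to -0.12, limma adjusted p = 0.827), as held for 2.45% of tested probes. Counts of genes without overlap use the brighter probe, on which these groups overlapped. Since the 2 probes share part of their sequence, they are not independent readings.

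Asl, which cleaves argininosuccinate to arginine and fumarate, read 4.87, 4.94, 5.18 and 5.23 in AAV-hGRB livers, 5.58, 5.70, 4.90 and 5.34 in AAV-GFP livers and 6.28, 5.46, 5.48 and 6.03 in PBS livers. The AAV-hGRB and PBS values did not overlap, and AAV-GFP lay between them. Its change in AAV-hGRB was -0.76 against PBS (0.59-fold, 95% interval -1.29 to -0.22, limma adjusted p = 0.792) and -0.32 against AAV-GFP (95% interval -0.86 to 0.21). AAV-GFP against PBS stood at -0.43.

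Arg1, the final enzyme of the cycle, was read at chr10:24669046-24669105 (minus strand) and differed little between groups. It stood at 6.20, 5.93, 6.08 and 5.74 in AAV-hGRB livers, 5.98, 6.22, 6.16 and 5.56 in AAV-GFP livers and 6.01, 5.85, 6.19 and 6.67 in PBS livers. All 3 groups overlapped. AAV-hGRB against AAV-GFP differed by 0.01 (95% interval -0.49 to 0.50), with -0.16 under normexp, and AAV-hGRB against PBS by -0.19 (95% interval -0.69 to 0.30).

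Sds, the serine dehydratase that turns serine into pyruvate and ammonia, was read at chr5:119717082-119717141 (plus strand). Its levels were 3.75, 3.77, 4.04 and 3.87 in AAV-hGRB livers, 4.79, 4.40, 4.05 and 3.17 in AAV-GFP livers and 3.37, 4.06, 3.71 and 5.35 in PBS livers. AAV-hGRB livers lay close together inside the range of the other groups, with an SD of 0.13 against 0.69 in AAV-GFP and 0.87 in PBS livers. The change in AAV-hGRB was -0.25 against AAV-GFP (95% interval -1.16 to 0.66) and -0.27 against PBS, where it turned to 0.14 without PBS replicate 4.

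Tdo2, the tryptophan dioxygenase that opens the kynurenine pathway, has probes at chr3:82068883-82071893 and chr3:82073120-82074397 (minus strand), both over introns. The brighter read 3.32, 3.88, 4.63 and 4.06 in AAV-hGRB livers, 4.10, 4.90, 2.98 and 3.50 in AAV-GFP livers and 4.49, 4.26, 3.04 and 4.13 in PBS livers. The 3 means lay within 0.11 of each other, at 3.97, 3.87 and 3.98, and the groups overlapped throughout. AAV-hGRB against AAV-GFP differed by 0.10 (95% interval -0.85 to 1.05), which turned to -0.02 under normexp, and AAV-hGRB against PBS by -0.01, which turned to 0.07 under quantile and 0.04 under median scaling. The second probe gave 0.07 and 0.17.

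Gpt, the cytosolic alanine aminotransferase, read 5.46, 5.86, 5.90 and 5.70 in AAV-hGRB livers, 6.15, 6.47, 5.48 and 6.07 in AAV-GFP livers and 6.38, 6.16, 6.07 and 6.90 in PBS livers. All AAV-hGRB livers lay below all PBS livers, and AAV-GFP replicate 3 was the one AAV-GFP liver among the AAV-hGRB values. The change in AAV-hGRB was -0.65 against PBS (0.64-fold, 95% interval -1.20 to -0.10, limma adjusted p = 0.827) and -0.31 against AAV-GFP (95% interval -0.86 to 0.24).

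Gpt2, its mitochondrial counterpart, was read at chr8:84117668-84117727 (plus strand). Its levels were 4.52, 4.52, 4.69 and 4.70 in AAV-hGRB livers, 4.68, 5.31, 4.76 and 4.70 in AAV-GFP livers and 5.13, 4.85, 5.50 and 5.42 in PBS livers. AAV-hGRB and PBS again did not overlap, while 3 of the AAV-GFP livers lay beside the AAV-hGRB livers. The AAV-hGRB SD was 0.10, against 0.30 in each of the other groups. The change in AAV-hGRB was -0.62 against PBS (0.65-fold, 95% interval -1.07 to -0.17, limma adjusted p = 0.815) and -0.26 against AAV-GFP (95% interval -0.71 to 0.19).

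Got1, the cytosolic aspartate aminotransferase, was read at chr19:43393921-43393979 (minus strand). Its levels were 2.33, 3.16, 3.75 and 3.39 in AAV-hGRB livers, 4.17, 3.30, 2.23 and 3.56 in AAV-GFP livers and 3.36, 3.44, 2.92 and 4.92 in PBS livers. Got1 had the widest spread of the 10, with a within-group SD of 0.77 against a median of 0.45 over the tested probes, and its groups overlapped. Its change in AAV-hGRB was -0.16 against AAV-GFP (95% interval -1.22 to 0.91), with the sign turning without AAV-hGRB replicate 1 (0.12) or AAV-GFP replicate 1 (0.13), and -0.50 against PBS (95% interval -1.57 to 0.57), which came to -0.08 without PBS replicate 4.

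In AAV-hGRB against AAV-GFP, the comparison that sets hGRB against a virus control, 8 of the 10 genes had a negative difference and the median was -0.25. Limma called 0 of the 10, and 0 of all 26591 probes (0%, lowest adjusted p 0.31), with 892 probes at an unadjusted p under 0.05 (3.35%, of which lower ones were 1.51% of all tested) and 0 of the 10 genes among them. Over all tested probes 56.5% were negative, with a median of -0.05. Among the 2977 probes as bright as these genes (a mean level of 3.38 or more), 78.2% were negative with a median of -0.17, so the share of negative genes here lay near that of bright probes. No gene had groups that did not overlap, against 1.94% of tested probes that were lower without overlap. Without AAV-GFP replicate 3, 3 genes (Ass1, Asl and Gpt) lay lower in AAV-hGRB without overlap, against 6.16% of tested and 19.9% of bright probes, and the median was -0.35. Under quantile scaling the median was -0.09, and under normexp -0.37.

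In AAV-GFP against PBS, 9 of the 10 genes had a negative difference, Otc being the exception, and the median was -0.24. Over all tested probes 49.4% were negative and the median was 0.00, and over bright probes 38.9% and 0.06. Limma called 0 of the 10 genes and 0 of all probes (0%), with 448 probes at an unadjusted p under 0.05. No gene lay lower without overlap, against 0.357% of tested probes. The list's median rested on single arrays. It was 0.01 without AAV-GFP replicate 3, with 5 genes negative, and 0.00 without PBS replicate 4, again with 5 negative. Without both it was 0.24, with 3 negative.

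In AAV-hGRB against PBS, 9 of the 10 genes had a negative difference and the median was -0.43, against 57.2% negative and -0.06 over all tested probes and 73.1% and -0.13 over bright probes. Limma called 0 of the 10 genes and 0 of all probes (0%), with 1553 probes at an unadjusted p under 0.05 (5.84%) and 3 of the 10 genes among them, Asl, Gpt and Gpt2. Those 3 genes also lay lower without overlap, against 2.45% of tested and 4.97% of bright probes, and 0 of the 10 lay higher without overlap, against 2.14% of tested probes. Scaling to the array median left 0 of the 10 lower without overlap (1.7% of tested and 0.369% of bright probes). Quantile scaling left Asl and Gpt2 (2.37% of tested and 1.91% of bright probes), and normexp left all 3 (0.733% and 2.42%). Without PBS replicate 4 the median of the 10 was -0.06, with 7 negative. The comparisons share their groups, so their values stand side by side and are not independent.

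**Figure D3:**
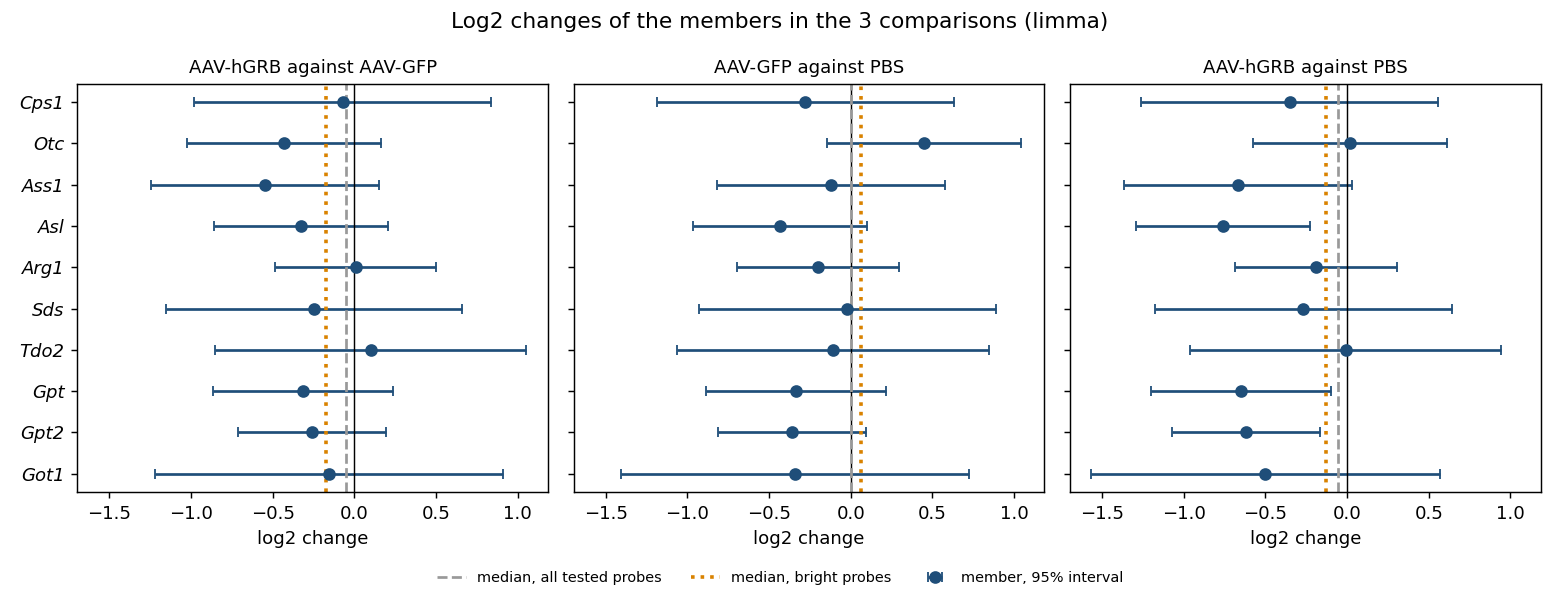
Log2 change (x axis) of each gene with its 95% interval from limma in the 3 comparisons. Dashed lines give the median of all tested probes and dotted lines that of bright probes. The intervals of Asl, Gpt and Gpt2 in AAV-hGRB against PBS are the ones that do not reach 0, and none of the adjusted p-values passed 0.05.

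Of the 6 slides 3 held more than 1 group, so each gene was also compared within a slide, with 1 array per group and no test. AAV-hGRB minus AAV-GFP had a median over the 10 genes of -0.88 on slide 5 (10 negative) and 0.21 on slide 6 (4 negative), where the AAV-GFP array was replicate 3. AAV-GFP minus PBS was 0.13, -0.44 and -0.26 on slides 1, 5 and 6. AAV-hGRB minus PBS was -1.30 on slide 5, where the PBS array was replicate 4, and -0.09 on slide 6. The direction against AAV-GFP thus did not hold on both slides. Over all tested probes the median of AAV-hGRB minus PBS was 0.04 on slide 5 and -0.21 on slide 6, so the 10 genes stood no lower than other probes on slide 6.

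Most of the 10 genes varied together from array to array. The SD was smallest in AAV-hGRB for 9 of the 10 genes, with a median of 0.229 against 0.490 in AAV-GFP and 0.523 in PBS livers. No share over all tested probes is given, so this is not shown to be particular to these genes. AAV-hGRB replicates 2 and 4 shared slide 3, which held no other group. No 2 arrays of AAV-GFP, or of PBS, shared a slide. The part of the shared slide in the smaller spread was not tested. The mean of the urea cycle accessory genes also had its smallest SD in AAV-hGRB (0.021 against 0.209 and 0.168). So did that of hepatocyte markers (0.061 against 0.138 and 0.132), but not that of tryptophan breakdown (0.126 against 0.221 and 0.097). The mean level of the 10 genes was highest on PBS replicate 4 (6.11) and lowest on AAV-hGRB replicate 1 (4.86) and AAV-GFP replicate 3 (4.94). PBS replicate 4 was the highest array for 6 genes, and AAV-hGRB replicate 1 and AAV-GFP replicate 3 were each the lowest for 3. Of the 45 gene pairs, 38 correlated positively over the 12 arrays, with a median Pearson r of 0.51. After subtracting the group means the count was again 38 and the median 0.46. The highest were Cps1 with Got1 (0.91), Ass1 with Gpt and Asl with Gpt (0.88 each) and Ass1 with Got1 (0.86). The 7 negative pairs all held Otc, led by Asl with Otc (-0.44). These values describe 12 arrays that share scaling and RNA quality across genes, so they carry no p-value.

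**Figure D4:**
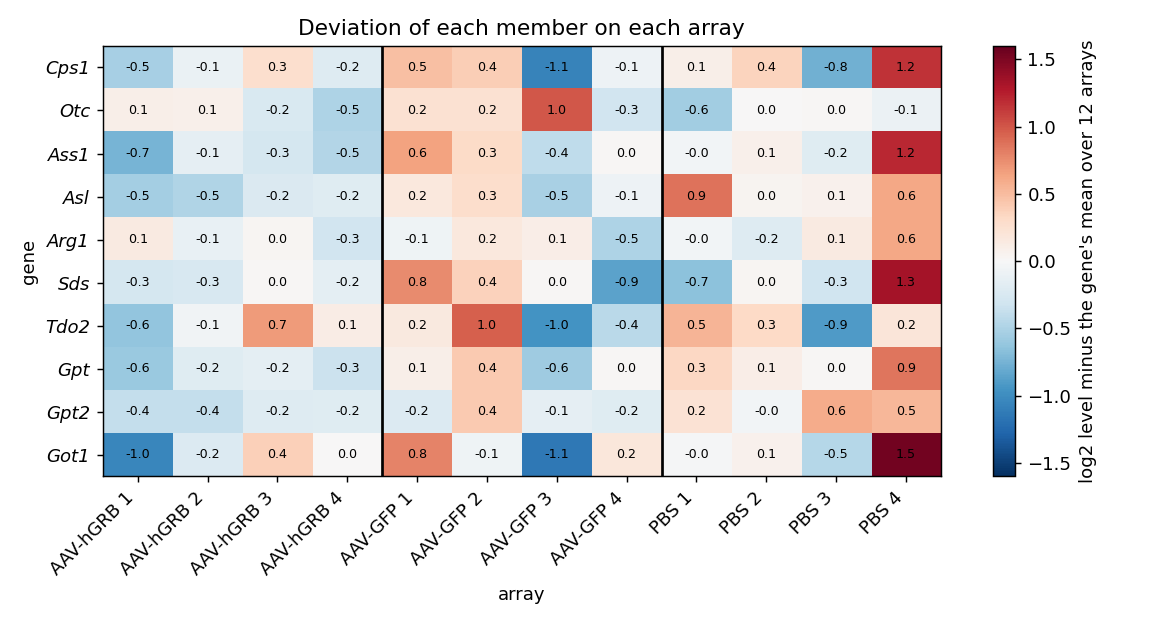
Level of each gene on each array minus the gene's mean over the 12 arrays (log2), with the group borders drawn. Red is higher and blue lower. PBS replicate 4 is red for most genes, and on AAV-GFP replicate 3 Otc is red where Cps1, Tdo2 and Got1 are blue.

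By the highest Pearson r over the 12 arrays among 13607 genes, the genes most like each member were Gas2 (0.95) and Qdpr (0.93) for Cps1, Cyth1 (0.95) and Tial1 (0.94) for Otc, and Aldh1l1 (0.93) and Pdk1 (0.90) for Ass1. For Asl they were Epop (0.94) and Zfp868 (0.92), for Arg1 Sema3g (0.89) and Rpl30 (0.86), and for Sds Ell3 and Etnppl (0.88 each). Tdo2 had Fam72a and Kbtbd7 (0.95 each), Gpt had Ap4s1 and Ppp2r5a (0.95 each), Gpt2 had Cd99 (0.91) and Gstz1 (0.90), and Got1 had Exosc7 (0.94) and Nostrin (0.93). With so many genes and 12 arrays, high values arise in any search, and nothing is drawn from them.

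Beyond the 10 genes, the wider set of 7 lists that supply or break down amino acids had 0 genes called and mostly negative differences. Of its 73 genes 68 were tested. In AAV-hGRB against AAV-GFP 55 of the 68 (80.9%) were negative, with a median of -0.21, near the 78.2% and -0.17 of bright probes, and 12 (17.6%) lay lower without overlap, against 1.94% of tested and 6.89% of bright probes. In AAV-GFP against PBS 43 (63.2%) were negative, with a median of -0.06, against 38.9% and 0.06 of bright probes, and 0 lay lower without overlap. In AAV-hGRB against PBS 64 (94.1%) were negative, with a median of -0.31, against 73.1% and -0.13 of bright probes, and 12 lay lower without overlap, against 2.45% of tested and 4.97% of bright probes. These counts depended on scaling. Under quantile scaling 41 of 68 were negative against AAV-GFP, with a median of -0.06 and 2 lower without overlap (2.94%, bright probes 1.61%), and 56 against PBS, with -0.19 and 6 (8.82%, bright probes 1.91%). Bright probes were then negative in 48.8% and 54.3%. Under median scaling the counts lower without overlap were 4 (5.88%, bright probes 3.06%) and 0 (bright probes 0.369%), and under normexp 5 (7.35%, bright probes 3.49%) and 8 (11.8%, bright probes 2.42%). Without AAV-GFP replicate 3, 62 were negative against AAV-GFP and 26 lay lower without overlap (38.2%), against 19.9% of bright probes. Without PBS replicate 4, 57 were negative against PBS.

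By pathway, all 12 tested urea cycle accessory genes were negative against AAV-GFP (median -0.35) and 11 of 12 against PBS (-0.34), where bright probes were negative in 78.2% and 73.1%. Under quantile scaling, where 48.8% and 54.3% of bright probes were negative, that list had 8 of 12 (-0.17) and 11 of 12 (-0.22). Histidine and proline breakdown stood at -0.41 and -0.52, with 7 of 7 negative each time, tyrosine and phenylalanine breakdown at -0.28 and -0.36, with 7 and 8 of 8, and branched-chain amino acid and lysine breakdown at -0.27 and -0.28, with 12 and 13 of 13. Tryptophan breakdown stood at -0.13 and -0.16 (6 and 7 of 8), and serine, glycine and threonine breakdown at -0.14 and -0.25 (8 and 10 of 12). Sulfur amino acid breakdown differed in sign, with 5 of 8 positive against AAV-GFP (0.12) and 8 of 8 negative against PBS (-0.15). This rested on AAV-GFP replicate 3, without which 7 of 8 were negative against AAV-GFP (-0.14). Against AAV-GFP its median was also -0.00 under normexp and 0.31, with 8 of 8 positive, under quantile scaling. Its AAV-GFP against PBS median of -0.35 came to -0.0008 without that array. The corresponding AAV-GFP against PBS medians were -0.01, -0.07, -0.08, 0.02, 0.04, -0.11 and -0.35, in the order of the lists just given. Without AAV-GFP replicate 3 they were 0.13, -0.11, 0.16, 0.09, 0.05, 0.03 and -0.0008 (bright probes 0.11). Medians of AAV-hGRB against AAV-GFP without that array were -0.41, -0.32, -0.45, -0.29, -0.16, -0.19 and -0.14 (bright probes -0.23). Under quantile scaling of all 12 arrays they were -0.17, -0.21, -0.06, -0.12, -0.03, -0.02 and 0.31 (bright probes 0.01). AAV-hGRB against PBS then had -0.22, -0.42, -0.23, -0.19, -0.11, -0.17 and -0.05 (bright probes -0.02).

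**Figure D5:**
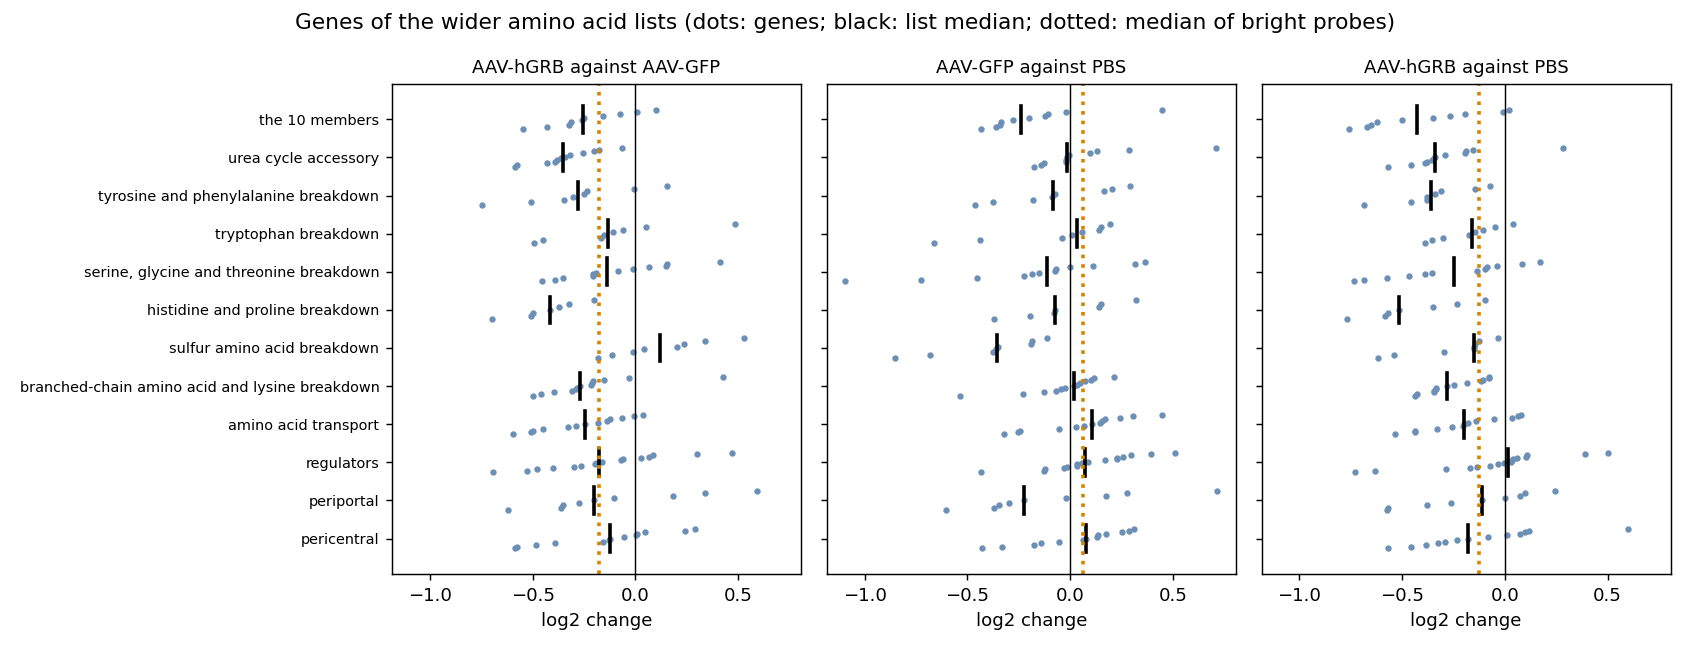
Log2 change (x axis) of each tested gene (dots) by list in the 3 comparisons, with the list median in black and the median of bright probes dotted. Most breakdown lists lie to the left of 0 in both AAV-hGRB comparisons, and the sulfur list lies to the right against AAV-GFP, where its median is -0.14 without AAV-GFP replicate 3.

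The 2 genes of lowest unadjusted p in each list are given with their difference against AAV-GFP, all at a limma adjusted p of 0.998. Tat, the tyrosine aminotransferase, was the lowest of them. It read 7.25, 6.93, 6.26 and 6.65 in AAV-hGRB livers, 7.38, 7.30, 7.59 and 7.81 in AAV-GFP livers and 7.09, 7.28, 7.02 and 7.52 in PBS livers, a change of -0.75 against AAV-GFP (SE 0.23), without overlap, and -0.46 against PBS. Prodh, the proline dehydrogenase, read 4.91, 5.23, 5.03 and 4.83 in AAV-hGRB livers, 5.41, 5.59, 6.39 and 5.39 in AAV-GFP livers and 5.24, 5.74, 6.23 and 5.86 in PBS livers. All AAV-hGRB values lay below both other groups, with differences of -0.70 (-0.47 without AAV-GFP replicate 3) and -0.77. Prodh2, which oxidises hydroxyproline, did the same, by -0.51 and -0.58, with 5.57 in AAV-hGRB replicate 1 against 5.58 in AAV-GFP replicate 4. These genes were picked for a low unadjusted p. Lower without overlap against AAV-GFP were 1.94% of tested and 6.89% of bright probes, and against PBS 2.45% and 4.97%.

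Glul, the glutamine synthetase of hepatocytes around the central vein, read 5.84, 5.69, 5.62 and 5.89 in AAV-hGRB livers and 6.00, 6.39, 6.49 and 6.45 in AAV-GFP livers, without overlap (-0.58), while against PBS it stood at -0.29 with overlap. Rhbg, an ammonium transporter, stood at -0.59. Hpd, of tyrosine breakdown, stood at -0.51 against AAV-GFP and -0.68 against PBS. Aass and Gcdh, of lysine breakdown, stood at -0.50 and -0.46, both without overlap. Such a separation from AAV-GFP, as for Glul, Aass and Gcdh, held for 1.94% of tested and 6.89% of bright probes. Aadat (-0.49) and Kyat1 (-0.45) handle kynurenine, Agxt (-0.45) converts glyoxylate to glycine, and Sdsl (-0.35) is related to Sds. Csad and Cdo1, which lead from cysteine to taurine, were the positive ones, at 0.53 and 0.34. Against PBS, Csad stood at -0.15 in AAV-hGRB and -0.68 in AAV-GFP livers.

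Amino acid carriers stood at a median of -0.24 against AAV-GFP (12 of 13 negative) and -0.20 against PBS (10 of 13). Slc38a3, a glutamine carrier, stood at -0.59 against AAV-GFP and -0.44 against PBS, and Slc38a2 at -0.50 and -0.05. Slc38a2 was also higher in AAV-GFP than in PBS livers without overlap (0.45), as held for 0.583% of tested and 0.705% of bright probes. The 16 regulators stood at -0.18 against AAV-GFP and 0.01 against PBS, with Igf1 at -0.53 and -0.13 and Klf15, a glucocorticoid-induced activator of amino acid breakdown, at -0.48 and 0.03. Cebpa (-0.06 and -0.07), Hnf4a (0.03 and 0.06) and Nr3c1 (0.07 and 0.04) were near 0, and Cebpb (-0.26 and -0.00) and the glucagon receptor gene Gcgr (-0.40 and -0.17) stood lower against AAV-GFP, with standard errors of 0.41 and 0.27. Periportal genes had a median of -0.20 and -0.11, with Pck1 at -0.62 and 0.10, and pericentral genes -0.12 and -0.18, with Lect2 at -0.48 and -0.23. In AAV-GFP against PBS the medians were 0.11 for carriers, 0.07 for regulators, -0.22 for periportal and 0.08 for pericentral genes.

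Markers of other cell types were read for the same arrays, as sums of linear signal in multiples of each array's 75th percentile. Of 11 hepatocyte markers, which check the tissue, 10 were on the array under their listed names and tested, and they summed to 4749 to 6101 in AAV-hGRB, 5416 to 7743 in AAV-GFP and 4803 to 6877 in PBS livers, with medians of -0.17 against AAV-GFP and -0.11 against PBS. Macrophage markers stood higher in AAV-hGRB, with 11 of 11 positive in both comparisons (0.34 and 0.57) and sums of 111 to 233, against 96.3 to 192 in AAV-GFP and 46.9 to 171 in PBS livers. T and NK cell markers stood at 0.32 and 0.22 (7 and 6 of 11 positive, sums of 2.73 to 4.04, 2.76 to 3.13 and 2.46 to 3.72 in the order AAV-hGRB, AAV-GFP, PBS), with Cd8a not well above background on enough arrays to be tested, as holds for the markers so described next. Neutrophil markers stood at 0.38 against AAV-GFP, -0.41 against PBS and -1.18 in AAV-GFP against PBS (5 of 5 negative), with sums of 4.45 to 11.8, 2.25 to 9.24 and 8.21 to 14.4 and with Camp, Ngp and Elane not above background.

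B cell markers stood at 0.38 and 0.25 (sums of 2.89 to 5.66, 2.44 to 4.46 and 2.13 to 5.24, Pax5 not above background) and cholangiocyte markers at -0.87 and -0.25 (25.6 to 119, 23.9 to 83.5 and 29.9 to 45.6). Endothelial markers stood at 0.11 and 0.22 (27.3 to 33.6, 22.9 to 40.4 and 26.2 to 31.8), stellate cell markers at 0.04 and 0.00 (65.8 to 94.0, 57.1 to 100.4 and 58.6 to 109.7) and erythroid markers at -0.55 and -0.43 (25.1 to 37.6, 36.6 to 53.5 and 33.0 to 46.2, Epb42 not above background). Kidney markers summed to at most 0.964 on any array and stood at -0.07 and -0.59, with Slc34a1 not above background. No marker was called by limma. The part of these cell types in the differences of the urea cycle and amino acid genes was not tested.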

How the data were processed

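Liver RNA of 12 samples, 4 per group, was hybridised to single-colour Agilent arrays, 1 sample per array. The deposited values are linear spot intensity from Agilent Feature Extraction, version 9.5.3.1 per the file headers (9.5 per the submitters' processing notes), with spatial and multiplicative detrending switched on. Non-control spots (43379 per array) were taken to log2 and averaged per probe, and each array's 75th percentile was subtracted. From the 41174 probes, those detected well above background by at least 4 arrays (26591) entered 1 limma fit of the 3 groups (limma 3.58.1, R 4.3.3, 9 residual degrees of freedom) with two-sided tests and Benjamini-Hochberg adjustment over all tested probes, threshold 0.05. RefSeq accessions renamed 22951 probes by the systematic accession and 131 by another, and 18092 kept the design's name. The deposited series matrix equals these intensities over 540216 values and was not used further. Probe positions are on mm7.

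The brightest probe by mean level stands for a gene. All 10 genes are named, and of each other list the 2 genes of lowest unadjusted p in AAV-hGRB against AAV-GFP, plus Nr3c1, Cebpa, Cebpb, Hnf4a and Gcgr. The genes and lists (7 of amino acid supply and breakdown, then transport, regulators, periportal, pericentral and 10 of cell type markers) were chosen with earlier results of these data known. Asl and the other genes singled out for groups that do not overlap were picked after their values were seen. Scaling, background correction, filters, slide and replicate blocks, array weights and single arrays were varied. On simulated data for AAV-hGRB against AAV-GFP, the fit called 17.4% of 2-fold and 66.4% of 4-fold changes. A gene that was not called may thus still differ by 2-fold. The number of arrays limits the precision.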

Additional observations from a re-analysis of the deposited data

Results flagged for a closer look

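Of the 30 sets of 4 values (10 genes in 3 groups), 1 held a value far from the other 3. The Gpt2 level in AAV-GFP replicate 2 was 5.31, where the other AAV-GFP livers read 4.68, 4.76 and 4.70. Its gap to the nearest of them exceeded the 95% limit of Dixon's test for 4 values. Chance gives about 1 such set in 20. With that liver left out, the Gpt2 change in AAV-hGRB against AAV-GFP was -0.11, instead of -0.26.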

How the results depend on the processing

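None of the 10 genes was called in any of the 23 other settings that had a test. The other 4 of the 27 settings (3 slides taken singly and the mean of a gene's probes) gave values only. Of the single-gene values 704 kept their sign and 86 reversed, and of the medians 72 moved by less than their limit and 7 by more. The cause was not tested. Normexp shifted the median of all probes by 0.11 in AAV-hGRB against PBS. In that comparison limma with array weights called 67 probes (56 higher, 11 lower), and the fit without AAV-GFP replicate 3 and PBS replicate 4 together, chosen after seeing the data, called 1; neither held one of the 10 genes.

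The labels do not say whether equal replicate numbers pair samples. Of 12 same-numbered pairs 5 correlated above 0.1 (range -0.43 to 0.59), and 4 of 12 arrays correlated best with their own number. Such correlations also carry slide and array quality, so they cannot settle whether the samples are paired. With the replicate block 0 probes were called. Each number occurs once per group, so the block cannot move the medians (-0.25 and -0.43 for AAV-hGRB, set against AAV-GFP and then PBS, and -0.24 for AAV-GFP).

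Reversed values of AAV-hGRB against AAV-GFP were Cps1 0.15 (quantile), Arg1 -0.16 and Tdo2 -0.0235 (normexp), Arg1 -0.11 and Cps1 0.10 (slide as fixed block), Sds 0.00828 (array weights), Cps1 0.25, Got1 0.21 and Sds 0.17 (3′ minus 5′ index as covariate, chosen after seeing the data) and Tdo2 -0.20 (without both arrays). Within slide 5 they were Arg1 -0.0176 and Tdo2 -1.59 (median -0.88), and within slide 6 Arg1 -0.0793, Asl 0.28, Ass1 0.13, Cps1 1.34, Got1 1.52 and Gpt 0.42 (median 0.21).

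For AAV-GFP against PBS they were Sds 0.0299 (array median), Sds 0.0365 and Tdo2 0.18 (slide as fixed block), Ass1 0.0542 and Got1 0.0530 (array weights) and, without both arrays, Ass1 0.38, Cps1 0.37, Got1 0.44, Gpt 0.0275, Sds 0.41 and Tdo2 0.24 (median 0.24). Within slide 1 they were Arg1 0.14, Asl 0.13, Ass1 0.55, Cps1 0.12, Got1 0.73 and Sds 0.73 (median 0.13), within slide 5 Tdo2 0.77 and within slide 6 Sds 0.33.

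For AAV-hGRB against PBS they were Tdo2 0.0654 (quantile) and 0.0445 (array median), Otc -0.12 (normexp), Otc -0.11 and Tdo2 0.30 (slide as fixed block), Tdo2 0.00017 (slide as random block), Otc -0.0332 (array weights), Otc -0.0739 and Tdo2 0.0785 (mean of a gene's probes), Sds 0.0206 and Tdo2 0.0298 (index) and Sds 0.14 and Tdo2 0.0416 (without both arrays, median -0.0576). Within slide 5 the median was -1.30, and within slide 6 Cps1 was 1.04, Got1 0.84, Otc -0.26, Sds 0.33 and Tdo2 1.59.

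Leaving out 1 array at a time, the medians ran from -0.35 to -0.14 in AAV-hGRB against AAV-GFP, -0.39 to 0.01 in AAV-GFP against PBS and -0.60 to -0.0576 in AAV-hGRB against PBS. Signs turned in the first for Arg1 (-0.13 to 0.0908), Cps1 (-0.41 to 0.11), Got1 (-0.52 to 0.13) and Tdo2 (-0.20 to 0.44). They turned in AAV-GFP against PBS for Ass1 (-0.29 to 0.19), Cps1 (-0.60 to 0.0551), Got1 (-0.63 to 0.0778), Sds (-0.27 to 0.39) and Tdo2 (-0.45 to 0.19), and against PBS in AAV-hGRB for Otc (-0.12 to 0.14), Sds (-0.52 to 0.14) and Tdo2 (-0.32 to 0.21). Asl (-0.88 to -0.60), Gpt (-0.75 to -0.47), Gpt2 (-0.75 to -0.53) and Ass1 (-0.82 to -0.36) kept their sign there, as did Cps1 (-0.68 to -0.0353) and Got1 (-0.75 to -0.0799), both nearest 0 without PBS replicate 4. Of the 41174 probes 14583 were too dim to test.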
